A study of Mus musculus with 6 samples.

Results

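Chemokine ligand genes were examined in medullary thymic epithelial cells (mTECs), the stromal cells of the thymic medulla, sorted by flow cytometry from C57BL/6 mice aged 4 weeks. The members were all rows of the 6 expression tables whose gene symbol begins with Ccl, Cxcl, Xcl or Cx3cl followed by a digit. These were 53 rows of 40 symbols among 20443 symbols in all, and 5 of the 40 symbols join several gene names, each headed by a Ccl21 gene. The control group comprised 3 Jmjd3 fl/fl libraries without Cre (Con_253, Con_261 and Con_264), and the deficient group comprised 3 Jmjd3 fl/fl-Foxn1-cre libraries (cKO_262, cKO_263 and cKO_265). Foxn1-cre acts in thymic epithelium at large and not in mTECs alone, and since no control carried Cre, the loss of Jmjd3 and the presence of Cre cannot be told apart. Jmjd3 (gene symbol Kdm6b) removes a repressive methyl mark from histone H3, and the title of the series concerns its role in tissue-restricted antigen expression.

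Chemokines are small secreted proteins that direct cell migration by binding G-protein-coupled receptors, and their family names (CC, CXC, CX3C and XC) describe the spacing of conserved cysteines near the amino terminus. In the thymus Ccl25 and Cxcl12 act on immature thymocytes and their progenitors, Ccl19 and Ccl21 draw selected thymocytes into the medulla through the receptor Ccr7, Ccl17 and Ccl22 act through Ccr4, and Xcl1 positions dendritic cells that carry Xcr1. Many inflammatory chemokine genes are induced through NF-kB, and Cxcl9, Cxcl10 and Cxcl11 are classical targets of interferon signalling.

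The promoter sequences were searched for a fixed spelling of the recognition motifs of these routes. The 250 bases before each RefSeq start (GRCm38.p6, whose primary assembly is mm10) were searched on both strands for a kappa-B motif written GGGANNTTCC, for an interferon-stimulated response element written GAAANNGAAA and for the TATA motif TATAAA. The table held 25 promoters of 22 of the 33 ligand symbols that could be tested. Promoters of Ccl2, Ccl4, Ccl5, Ccl7, Ccl11, Ccl24, Cxcl5, Cxcl11, Cxcl16, Cxcl17 and Ccl21b,Gm13304 were not analysed here. The kappa-B motif was found in 5 of these 25 promoters (20%) and in 397 of all 32851 promoters (1.21%). The 5 were those of Cxcl1, Cxcl2, Cxcl3, Cxcl10 and Ccl1. The interferon motif was found in 2 of the 25 (8%, against 2.98% of all promoters), and the TATA motif in 8 (32.0%, against 12.4%). A match describes letters only and does not show that a factor binds. Other spellings of the motifs were not searched, so a promoter without a match may still hold a site.

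The 3 neighbouring neutrophil-attracting genes Cxcl1, Cxcl2 and Cxcl3 are shown because they carried the same 11 bases around the kappa-B motif. The stretches run from 110 to 11 bases before the start, all on the plus strand of chromosome 5, with motif matches in capitals (overlapping matches of the kappa-B motif on both strands form 1 run, and Cxcl3 also holds a TATA match).
Cxcl1, chr5:90891135-90891234: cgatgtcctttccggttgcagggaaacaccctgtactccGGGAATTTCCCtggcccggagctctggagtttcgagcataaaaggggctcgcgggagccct
Cxcl2, chr5:90903789-90903888: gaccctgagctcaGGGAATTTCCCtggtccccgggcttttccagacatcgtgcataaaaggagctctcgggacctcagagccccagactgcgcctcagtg
Cxcl3, chr5:90785991-90786090: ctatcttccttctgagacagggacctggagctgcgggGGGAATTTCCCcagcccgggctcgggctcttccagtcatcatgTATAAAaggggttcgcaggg

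Cxcl10, the ligand with the highest listed level, and Cxcl14, 1 of the members with the largest differences between groups, are also shown. The stretches are the 250 bases before their starts, both on the minus strand. The capitals in Cxcl10 mark an interferon motif followed by a kappa-B motif, and those in Cxcl14 mark an interferon motif. Only the searched spellings are in capitals.
Cxcl10, chr5:92348890-92349139: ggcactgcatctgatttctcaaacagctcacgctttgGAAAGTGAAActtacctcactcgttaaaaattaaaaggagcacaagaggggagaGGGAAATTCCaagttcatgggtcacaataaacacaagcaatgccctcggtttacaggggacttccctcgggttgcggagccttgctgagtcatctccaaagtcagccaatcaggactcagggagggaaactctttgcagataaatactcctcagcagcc
Cxcl14, chr13:56296552-56296801: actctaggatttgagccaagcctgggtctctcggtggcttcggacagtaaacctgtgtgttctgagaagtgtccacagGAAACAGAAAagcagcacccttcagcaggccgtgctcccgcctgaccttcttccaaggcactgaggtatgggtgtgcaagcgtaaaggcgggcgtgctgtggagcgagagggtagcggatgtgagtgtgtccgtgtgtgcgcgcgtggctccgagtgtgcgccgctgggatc

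The values were FPKM, fragments per kilobase of transcript and per unit of mapped fragments, so levels are scaled to transcript length. The cDNA was amplified, which can favour some transcripts over others, so comparisons of level between genes are approximate. No read counts are in the tables, and sequencing depth is therefore unknown. The targeted gene Kdm6b read 18.1, 17.1 and 9.998 FPKM in control libraries against 11.1, 11.6 and 8.67 FPKM in deficient libraries, and the groups overlapped (log2 fold change -0.45, SE 0.23, limma adjusted p = 0.418). The labels do not say which exons were deleted, so this value does not check them. The 8 mTEC markers were all expressed and summed to 3754 to 4443 FPKM in the controls and to 4209 to 4922 FPKM in the deficient libraries, with Epcam at 751 to 945 FPKM over the 6 libraries. On the first principal component cKO_265 scored 53.0 and the other libraries -22.7 to 7.42. Y-linked Eif2s3y was at 7.88 FPKM in Con_253 and at most 0.0409 FPKM elsewhere, so Y-linked expression was present in 1 library of the 6. Among markers of other cells, the 12 thymocyte genes summed to 45.1 to 73.9 FPKM in the controls and to 32.3 to 41.2 FPKM in the deficient libraries. The 12 macrophage genes summed to 404 to 475 and 314 to 349 FPKM, and the 9 genes of tuft-like mTECs to 130 to 161 and 41.5 to 57.6 FPKM. All 3 sums were lower in every deficient library than in every control. The 7 genes of cortical thymic epithelium summed to 729 to 883 FPKM in the controls and to 851 to 1138 FPKM in deficient libraries. The 5 B-cell genes summed to 38.8 to 51.7 and 40.8 to 56.0 FPKM. The 7 fibroblast genes summed to 32.8 to 40.5 and 29.7 to 35.9 FPKM, and the 8 endothelial genes to 13.569 to 17.8 and 10.2 to 13.574 FPKM. Each of these further sums overlapped between groups. At a limma adjusted p under 0.05, 3 of the 9 tuft-like genes were lower in the deficient libraries. This held for 0 of the tested thymocyte and macrophage genes and for 0.0573% of all tested genes. The macrophage sum was mostly Lyz2, and the other 11 genes, Aif1 included, summed to 68.5 to 113 FPKM in control and 71.9 to 76.5 FPKM in deficient libraries, with overlap. Of the 11 macrophage genes that could be tested, Lyz2 included, 10 had log2 fold changes below 0 and 1 above, and the median was -0.40. Of the macrophage genes Aif1 went the other way, with a control mean of 4.29 FPKM and a deficient mean of 13.7 FPKM, without overlap (log2 fold change 1.46, SE 0.20, limma adjusted p = 0.0555). In bulk samples fewer cells of a type and less RNA per cell cannot be told apart.

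A few genes held most of the ligand FPKM listed for the sorted mTEC samples. These are RNA levels of bulk samples. The Ccl19 entry and most Ccl21 entries are listed at 0, which is not a measurement of absence, so shares and ranks hold only for the values as listed. The summed FPKM of all symbols was 543156, 507417 and 461152 in the controls and 582835, 634145 and 641060 in the deficient libraries. It was thus higher in every deficient library, and the main comparison between groups was not corrected for this. The 40 symbols together held 0.321%, 0.343% and 0.333% of the summed FPKM in the controls and 0.306%, 0.285% and 0.391% in the deficient libraries. Cxcl10 alone made up 39.4% to 44.1% of this ligand total in each of the 6 libraries, and Ccl25 made up 14.7% to 21.5%. Next in mean level over the 6 libraries came Ccl5 (124 FPKM), Ccl22 (89.0 FPKM), Ccl1 (61.0 FPKM) and Ccl7 (59.3 FPKM). The lowest symbol above 0 was Ccl28, an epithelial mucosal chemokine, at a mean of 0.507 FPKM.

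**Figure D1:**
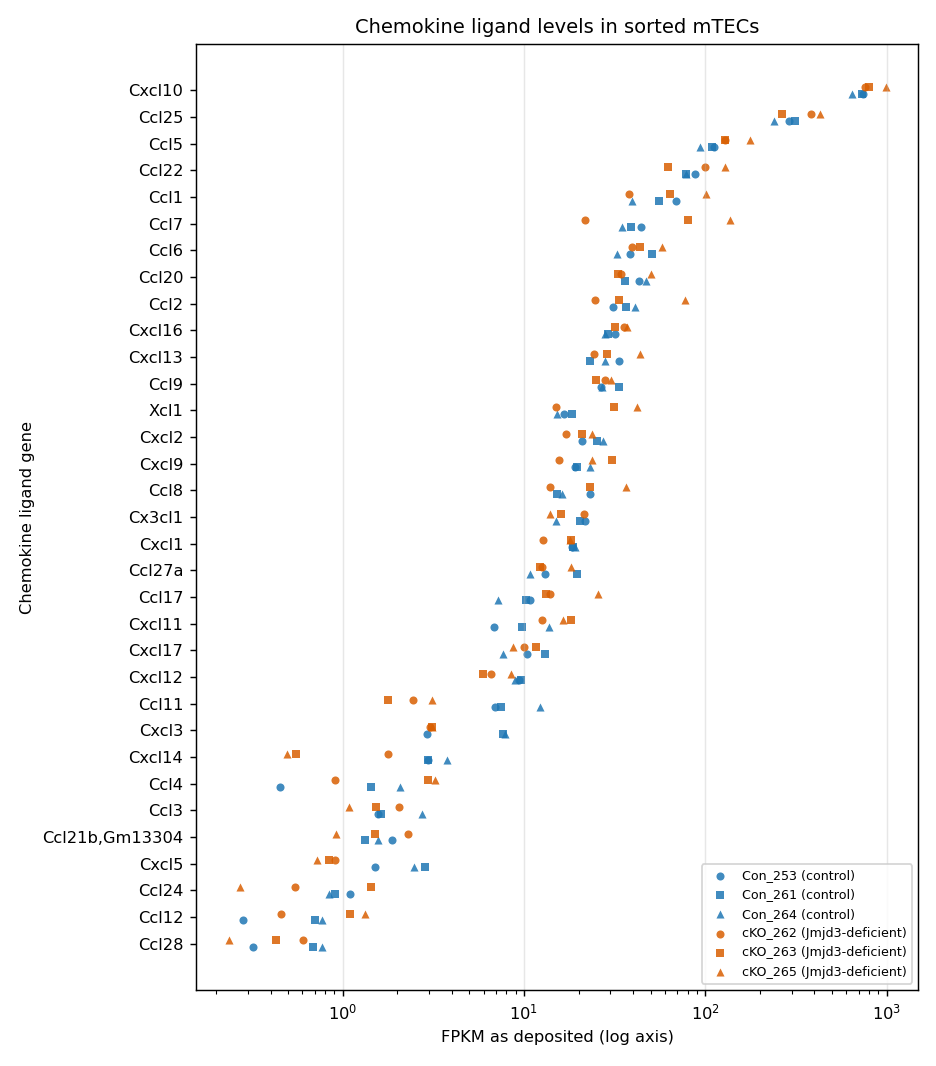
FPKM of the 33 chemokine ligand symbols listed above 0, 1 point per library on a log axis, with controls in blue and Jmjd3-deficient libraries in orange, ordered by mean level. Cxcl10 and Ccl25 lie above all other ligands in every library, and the groups stand apart most clearly for Ccl11 and Cxcl14.

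Only 33 of the 40 symbols had a value above 0 in any library, and these 33 also passed the filter of a mean of 0.5 FPKM. The 7 listed at 0 in all 6 libraries were Ccl19, Ccl26, Ccl27b and 4 joined symbols of the Ccl21 genes. Ccl26 is an eotaxin-type ligand, Ccl27b is a copy of the skin chemokine Ccl27a, and Ccl19 and Ccl21 are the Ccr7 ligands of the thymic medulla. The single Ccl21 entry above 0, the joined symbol Ccl21b,Gm13304, read 1.87, 1.32 and 1.57 FPKM in control libraries against 2.29, 1.504 and 0.916 FPKM in deficient libraries. All of its signal came from 1 of its 4 rows, on an unlocalized scaffold of chromosome 4, and its groups overlapped (log2 fold change -0.04, SE 0.23, limma adjusted p = 0.957).

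Most of the symbols listed at 0, though not Ccl26, share sequence with copies elsewhere. Of all 50-base windows in GENCODE M21 transcripts, 71.6% of those of Ccl21a (chr4:42772860-42773993), 100% of those of Ccl21b, 98.1% of those of Ccl27b and 52.0% of those of Ccl19 (chr4:42754525-42756577) also occurred in a gene elsewhere. For Ccl26 the share was 0.00%, and among the ligands listed above 0 it was at most 5.84% except for Ccl27a (44.98%) and for the joined symbol Ccl21b,Gm13304, both of whose genes shared 100% of their windows. The coding sequence of 402 bases was the same in Ccl21b, Gm10591, Gm13304 and Gm21541 and differed from that of Ccl21a at 2 positions, A84T and T194C, counted from the first base of the coding sequence with the Ccl21b base first. These are the only 2 coding differences, and they set Ccl21a apart from the other genes but do not separate those from each other. The stretch around the second position is shown, with that base in capitals.
Ccl21a: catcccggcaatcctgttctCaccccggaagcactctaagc
Ccl21b: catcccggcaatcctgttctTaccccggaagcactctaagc
How the authors' pipeline treated reads that fit several copies is not given in the sources used here, so a listed 0 for the Ccl19, Ccl21 and Ccl27b entries is not a measurement of absence, and whether shared sequence produced the zeros was not tested.

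Jmjd3-deficient and control mTECs were then compared for the 33 ligand symbols. A log2 fold change is the deficient minus the control mean of log2(FPKM + 1), which understates the differences of low genes. Of these, 0 were called at an adjusted p under 0.05 (limma, adjusted over 15720 tested genes), where 12 of all tested genes (0.0763%) were called, 0.0191% with higher and 0.0573% with lower expression in the deficient group. At an unadjusted p under 0.05, 3 ligands were above the controls (Ccl17, Ccl5 and Cxcl11) and 4 below them (Ccl11, Cxcl14, Cxcl5 and Cxcl3). These 7 were 21.2% of the ligands, where 14.6% of all tested genes reached that p (6.81% above and 7.82% below the controls). The groups did not overlap for 9 ligands (27.3%, against 21.5% of all tested genes): 4 with higher values (Ccl17, Ccl5, Cxcl16 and Cxcl10, where 9.59% of all tested genes did so) and 5 with lower values (Ccl11, Cxcl14, Cxcl5, Cxcl12 and Cxcl1, against 11.9%). The median log2 fold change of the ligands was 0.12, with 18 above and 15 below 0, against a median of -0.04 over all tested genes, of which 45.3% were above and 54.7% below 0. The ligand median was -0.02 when cKO_265 was left out. The number of ligands at an unadjusted p under 0.05 was 4 of 32 tested without Con_261 or without Con_264. The share of all genes was not computed in these settings.

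**Figure D2:**
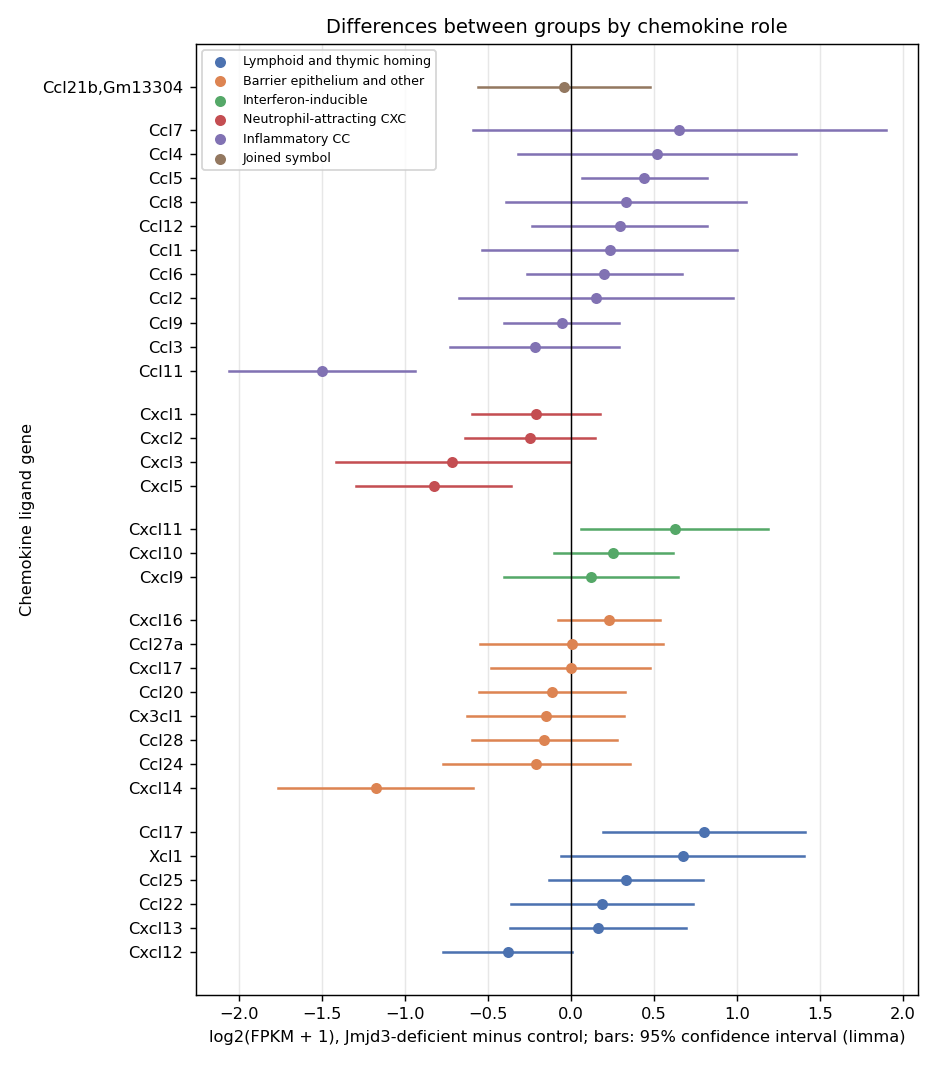
Difference between groups on the log2(FPKM + 1) scale for the 33 ligand symbols, grouped by role, with points for the limma estimate and bars for its 95% confidence interval. Ccl11, Cxcl14 and Cxcl5 have the intervals lying farthest below 0, and no ligand was called after adjustment over all genes.

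The gene with the smallest p among the ligands was Ccl11, eotaxin, which attracts eosinophils through Ccr3 (chr11:82057823-82062955, protein coding). Ccl11 stood at 6.93, 7.45 and 12.2 FPKM without Cre and 2.43, 1.78 and 3.10 FPKM with Foxn1-cre. Every deficient library lay below every control, with means of 8.87 ± 2.92 and 2.44 ± 0.658 FPKM (SD, n = 3 each). The log2 fold change was -1.501 (SE 0.25, 95% confidence interval -2.06 to -0.94, limma adjusted p = 0.0978). It ranged from -1.81 to -1.27 over the 12 alternatives, with adjusted p from 0.0690 to 0.293. By unadjusted p Ccl11 ranked 35 among all tested genes. Its neighbours in the same CC cluster lay above 0: Ccl7, which starts a short distance before it, had a log2 fold change of 0.65 (SE 0.55), and Ccl12, which follows it, of 0.30 (SE 0.23). The difference between neighbours was not tested.

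Cxcl14, a chemokine of barrier epithelia that attracts monocytes and dendritic cells (chr13:56288643-56296551), was at 2.96, 2.96 and 3.74 FPKM in the controls. It was at 1.77, 0.555 and 0.492 FPKM in the deficient libraries, with cKO_262 nearest to the controls. Its log2 fold change was -1.18 (SE 0.26, limma adjusted p = 0.125), and -1.47 without cKO_262 (adjusted p = 0.0528). The smallest adjusted p of any ligand over all alternatives was this value.

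**Figure D3:**
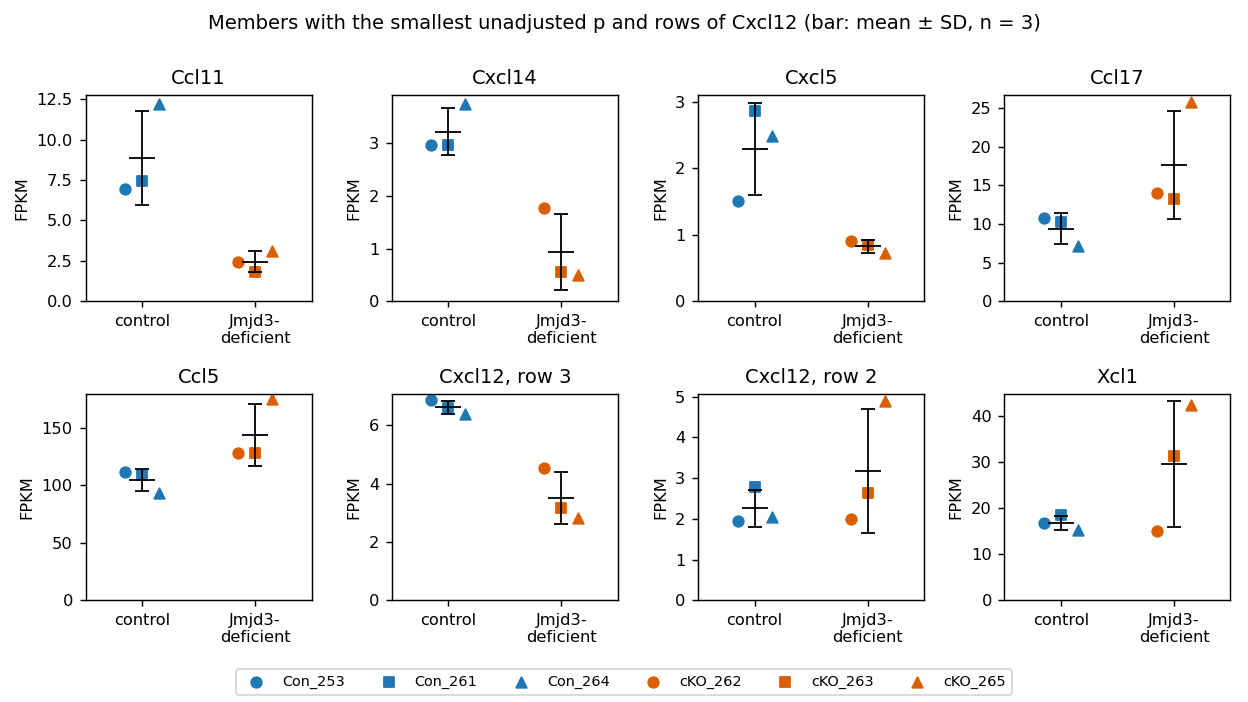
FPKM in each library for Ccl11, Cxcl14, Cxcl5, Ccl17, Ccl5 and Xcl1 and for rows 3 and 2 of Cxcl12, with black bars for the mean ± SD (n = 3 per group). For Ccl11, Cxcl14, Cxcl5 and row 3 of Cxcl12 all deficient libraries lie below all controls, and for Ccl17 and Ccl5 they lie above them.

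Lymphoid and thymic homing ligands made up the first role group. The joined symbol Ccl21b,Gm13304, described above, was placed in no role group and is not counted here. Of the 6 tested members of the homing group 5 had log2 fold changes above 0 and 1 below, 0 were called, and the median was 0.26. By library the median of the homing ligands, relative to the control mean, was 0.07 in cKO_262, -0.01 in cKO_263 and 0.65 in cKO_265. Ccl25, the Ccr9 ligand that thymic epithelium makes for developing thymocytes (chr8:4325210-4360020), had control values of 291, 313 and 241 FPKM and deficient values of 384, 266 and 430.1 FPKM. The groups overlapped through cKO_263 (log2 fold change 0.33, SE 0.20, 95% confidence interval -0.13 to 0.79, limma adjusted p = 0.493). Under quantile normalization the value was 0.04, and it was 0.19 without cKO_265 and 0.54 without cKO_263. RefSeq gives Ccl25 a pair of starts, with 45 CpG dinucleotides in the 250 bases before the upstream start and 0 before the downstream one, and the tables have a single row for both. The locus of Ccl25 overlaps Elavl1 on the opposite strand, and strandedness is not given in the sources used here.

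Ccl17 and Ccl22, neighbouring genes on chromosome 8 that encode the Ccr4 ligands, were read side by side, and the difference between them was not tested. Ccl17 read 10.8, 10.2 and 7.16 FPKM in control libraries against 13.999, 13.2 and 25.8 FPKM in deficient libraries, so that the groups did not overlap. Its log2 fold change was 0.80 (SE 0.27, limma adjusted p = 0.231), and 0.51 without cKO_265, its highest library. Ccl22 stood at 87.6, 77.9 and 78.6 FPKM without Cre and 99.0, 62.4 and 129 FPKM with Foxn1-cre, which held both its lowest and its highest value. Its log2 fold change of 0.19 (SE 0.24, limma adjusted p = 0.766) became -0.05 without cKO_265. Cx3cl1, a membrane-bound chemokine encoded between them and listed with the barrier ligands below, had a control mean of 19.1 ± 3.56 FPKM and a deficient mean of 17.1 ± 3.97 FPKM (log2 fold change -0.15, SE 0.21).

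Xcl1, the dendritic cell chemokine (chr1:164931644-164935527), had control values of 16.7, 18.4 and 15.2 FPKM and deficient values of 15.1, 31.3 and 42.2 FPKM. The library cKO_262 lay level with the lowest control, Con_264, while cKO_263 and cKO_265 lay above all controls, so the deficient group was split. The log2 fold change was 0.67 (SE 0.32, limma adjusted p = 0.377), 1.08 without cKO_262 (adjusted p = 0.0698) and 0.37 without cKO_265. Cxcl13, which draws B cells through Cxcr5, had a control mean of 28.2 ± 5.21 FPKM and a deficient mean of 32.3 ± 10.2 FPKM (log2 fold change 0.16, SE 0.23).

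Cxcl12, the Cxcr4 ligand (chr6:117168535-117181367), was the 1 member of the homing group with lower values in the deficient mice. Summed over its rows it read 9.38, 9.64 and 8.96 FPKM in control libraries against 6.58, 5.93 and 8.47 FPKM in deficient libraries, without overlap. The log2 fold change was -0.38 (SE 0.17, limma adjusted p = 0.349). The gene had 3 rows, and the tables do not say how rows of 1 symbol differ. Row 3, the largest in the controls, stood at 6.85, 6.59 and 6.39 FPKM without Cre and 4.53, 3.16 and 2.83 FPKM with Foxn1-cre. Row 2 went the other way in cKO_265, with 1.94, 2.79 and 2.05 FPKM in the controls and 1.98, 2.63 and 4.89 FPKM in the deficient libraries. When all rows were fitted singly, row 3 had a log2 fold change of -0.77 (SE 0.19, limma adjusted p = 0.226) and row 2 of 0.30 (SE 0.28, adjusted p = 0.697). In cKO_265 alone row 2 exceeded row 3.

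Ligands of barrier epithelia and related sites formed the second group. Of its 8 tested members 2 had log2 fold changes above 0 and 6 below, 0 were called, and the median was -0.13. Cxcl14, described above, was the 1 member at an unadjusted p under 0.05. Ccl20, the Ccr6 ligand of epithelia over lymphoid tissue, had control values of 43.0, 36.1 and 47.1 FPKM and deficient values of 34.4, 33.1 and 50.3 FPKM (log2 fold change -0.11, SE 0.19, 95% confidence interval -0.55 to 0.33). With 1 library left out it ranged from -0.30 without cKO_265 to -0.0062 without cKO_263. Its 2 rows differed in sign when fitted singly, at 0.08 and -0.27, both within their standard errors of 0.27 and 0.31. Cxcl16, a membrane-bound ligand of Cxcr6, read 31.6, 29.1 and 28.0 FPKM in control libraries against 35.5, 31.9 and 37.1 FPKM in deficient libraries. The groups of Cxcl16 did not overlap, but the difference was small (log2 fold change 0.23, SE 0.13, limma adjusted p = 0.475). It shares its locus with Zmynd15 on the opposite strand, and strandedness is not given in the sources used here.

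Ccl27a, the skin T-cell chemokine, illustrates how rows of 1 gene can diverge. Its sum had a control mean of 14.5 ± 4.63 FPKM and a deficient mean of 14.4 ± 3.33 FPKM (log2 fold change 0.01, SE 0.24). Its row 2 was listed at 0 in Con_264, cKO_262 and cKO_263 and stood at 3.19, 0.877 and 10.2 FPKM in Con_253, Con_261 and cKO_265. In cKO_265 row 2 was the largest of the 3 rows, and row 3 was at its lowest there (4.91 FPKM). Cxcl17, a mucosal chemokine, averaged 10.3 ± 2.69 and 10.2 ± 1.49 FPKM (95% confidence interval of the log2 fold change -0.48 to 0.48). Ccl24 and Ccl28 had means under 1 FPKM in both groups and overlapping values.

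The interferon-inducible ligands Cxcl9, Cxcl10 and Cxcl11 attract cells bearing Cxcr3 and lie next to each other on chromosome 5. All 3 log2 fold changes were above 0, and 0 were called. Cxcl10 (chr5:92346638-92348889) stood at 744, 731 and 647 FPKM without Cre and 760.2, 797 and 987 FPKM with Foxn1-cre. The groups of Cxcl10 did not overlap (log2 fold change 0.26, SE 0.16, limma adjusted p = 0.494), but the value was 0.14 without cKO_265, and under quantile normalization it turned to -0.21. The FPKM values of Cxcl10 were not corrected for the higher summed FPKM of the deficient libraries. Cxcl9 had control values of 19.2, 19.7 and 23.2 FPKM and deficient values of 15.6, 30.5 and 23.7 FPKM, and its log2 fold change of 0.12 (SE 0.23) turned to -0.09 without cKO_263. Cxcl11 read 6.86, 9.73 and 13.7 FPKM in control libraries against 12.5, 18.3 and 16.5 FPKM in deficient libraries, where only Con_264 reached into the range of the deficient group (log2 fold change 0.63, SE 0.25, limma adjusted p = 0.291). Without Con_253 the value of Cxcl11 was 0.40. GENCODE lists Cxcl11 as a polymorphic pseudogene, so its transcript need not yield a protein in this strain. The tables give Cxcl10 and Cxcl11 the same locus, which also contains Art3 on the opposite strand.

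Other genes of the interferon route were read from a list. Of 16 tested genes 0 were called, 6 had log2 fold changes above 0 and 10 below, and the median was -0.09. Irf7, a transcription factor of the interferon response, had a control mean of 69.8 ± 3.09 FPKM and a deficient mean of 35.7 ± 10.8 FPKM, without overlap (log2 fold change -0.99, SE 0.21, limma adjusted p = 0.125). The interferon-induced genes Ifit3 and Ifit1 were at -0.49 (SE 0.18) and -0.48 (SE 0.22), and the receptor chain gene Ifnar2 was at 0.31 (SE 0.15).

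The neutrophil-attracting CXC ligands Cxcl1, Cxcl2, Cxcl3 and Cxcl5, which act through Cxcr2 and cluster on chromosome 5, all had lower means in the deficient mice. Their median log2 fold change was -0.48, and 0 of the 4 were called. Cxcl5 (chr5:90759360-90761624) stood at 1.51, 2.86 and 2.49 FPKM without Cre and 0.911, 0.840 and 0.722 FPKM with Foxn1-cre. Its groups were separate (log2 fold change -0.83, SE 0.20, limma adjusted p = 0.152). Cxcl3 had control values of 2.90, 7.70 and 7.88 FPKM and deficient values of 3.05, 3.11 and 3.11 FPKM, where Con_253 lay below all deficient libraries. Its log2 fold change was -0.71 (SE 0.31, limma adjusted p = 0.335), and -1.10 once Con_253, which expressed Y-linked genes, was left out. Cxcl1 and Cxcl2, which carried the same kappa-B stretch as Cxcl3 in the sequences above, were at -0.21 (SE 0.17) and -0.25 (SE 0.17). Cxcl2 and Cxcl3 share 5.84% and 4.29% of their 50-base windows with other genes, partly with each other, so their values are less certain.

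The last group comprised 11 inflammatory CC ligands, all of them encoded on chromosome 11. Of these 8 had log2 fold changes above 0 and 3 below, 0 were called, and the median was 0.23. By library, relative to the control mean, it was -0.21 in cKO_262, 0.25 in cKO_263 and 0.74 in cKO_265. Ccl5, which attracts T cells, read 111, 109 and 93.7 FPKM in control libraries against 128, 128 and 175 FPKM in deficient libraries. The groups of Ccl5 did not overlap (log2 fold change 0.44, SE 0.17, limma adjusted p = 0.270), and the value was 0.29 without cKO_265 and 0.21 under quantile normalization.

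The monocyte-attracting ligands of this group were highest in 1 deficient library. Ccl7 read 44.2, 38.9 and 34.8 FPKM in control libraries against 21.7 FPKM in cKO_262, 79.9 FPKM in cKO_263 and 136 FPKM in cKO_265. Ccl2 read 31.0, 36.6 and 40.8 FPKM in control libraries against 24.5, 33.5 and 77.3 FPKM in the same deficient libraries. Ccl8 had a control mean of 18.2 ± 4.32 FPKM and a deficient mean of 24.6 ± 11.4 FPKM. In each of the 3 genes cKO_262 was the lowest and cKO_265 the highest of all libraries. Without cKO_265 the log2 fold change of Ccl7 went from 0.65 to 0.09 (and to 1.39 without cKO_262, limma adjusted p = 0.0698), that of Ccl2 from 0.15 to -0.32, and that of Ccl1 from 0.23 to -0.11. Ccl1, a Ccr8 ligand of the same chromosome 11 cluster, read 68.7, 55.3 and 39.3 FPKM in control libraries against 38.1, 63.5 and 101 FPKM in deficient libraries, which again held both extremes. Ccl6, a chemokine of myeloid cells, read 38.7, 50.9 and 32.7 FPKM against 39.5, 43.5 and 57.4 FPKM, with overlap (log2 fold change 0.20, SE 0.20, and from 0.05 without cKO_265 or 0.06 without Con_264 to 0.37 without Con_261). Its relative Ccl9 had a log2 fold change of -0.06 (SE 0.15), and Ccl3, Ccl4 and Ccl12 were under 4 FPKM in every library with overlapping groups. The macrophage markers other than Lyz2 summed to 76.5, 71.9 and 74.2 FPKM in cKO_262, cKO_263 and cKO_265, within the range of the controls. This sum includes Aif1, which was higher in the deficient libraries. Lyz2 read 267, 242 and 275 FPKM in the same libraries, against 324 to 362 FPKM in the controls. Of the 11 tested macrophage genes 10 had log2 fold changes below 0 and 1 above. The part of macrophage RNA in the ligand values was not tested.

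**Figure D4:**
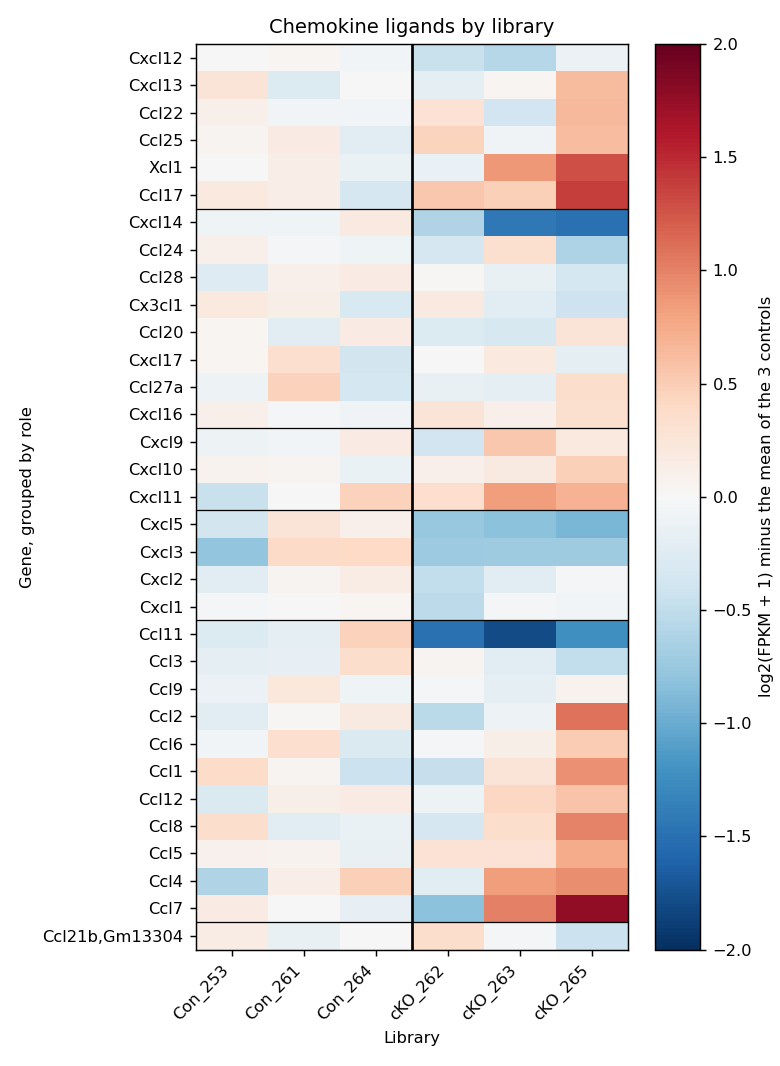
log2(FPKM + 1) of each ligand in each library minus the mean of the 3 controls, with genes in rows grouped by role and libraries in columns. The column of cKO_265 holds the highest value of 16 of the 33 ligands, among them Ccl7, Ccl17 and Xcl1, while Ccl11 and Cxcl14 are low in all 3 deficient columns.

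The library cKO_265 held the highest values across several roles. Of the 33 ligands, 16 (48.5%) had their highest value in cKO_265, where 24.1% of all tested genes did, and 7 (21.2%) had their lowest value there, where 30.1% of all tested genes did. Relative to the control mean, the median of the ligands was -0.15 in cKO_262, -0.04 in cKO_263 and 0.32 in cKO_265.

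Chemokine receptor genes were read from a list of 23, of which 21 were tested. None was called (0 by limma), where 7 (33.3%, against 14.6% of all tested genes) had an unadjusted p under 0.05, 1 above and 6 below the controls. The median log2 fold change was -0.12. Ccr4, the receptor for Ccl17 and Ccl22, had a control mean of 4.10 ± 0.670 FPKM and a deficient mean of 2.14 ± 0.469 FPKM, without overlap (log2 fold change -0.70, SE 0.19, limma adjusted p = 0.174). Ccr10, a receptor for Ccl27a and Ccl28, was at -0.59 (SE 0.20), and Ccr8, the Ccl1 receptor, was at -0.63 (SE 0.24). The scavenging receptor gene Ccrl1 (now Ackr4), which takes up Ccl19, Ccl21 and Ccl25, stood at 4.04, 2.16 and 3.12 FPKM without Cre and 3.02, 0.466 and 0.234 FPKM with Foxn1-cre (log2 fold change -1.06, SE 0.42, limma adjusted p = 0.291).

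The receptors of the other named ligands stood at different levels. Ccr7 had a control mean of 61.3 ± 8.204 FPKM and a deficient mean of 67.9 ± 9.87 FPKM, and Ccr9 7.05 ± 1.66 and 7.02 ± 1.13 FPKM. Ccr6, the Ccl20 receptor, had a log2 fold change of 0.56 (SE 0.23, limma adjusted p = 0.302). Cxcr2, Cxcr5 and Cxcr6, which bind the neutrophil-attracting ligands, Cxcl13 and Cxcl16, had log2 fold changes of 0.12, -0.01 and -0.10. Xcr1, the Xcl1 receptor of dendritic cells, had a control mean of 1.37 FPKM and a deficient mean of 1.12 FPKM, and the 8 dendritic markers summed to 15.5 to 18.0 FPKM and 12.7 to 18.3 FPKM. Ccr2 and Ccr3, which bind the monocyte-attracting ligands and Ccl11, had log2 fold changes of -0.37 and -0.03. Cxcr3 and Cxcr4, which thymocytes and other leukocytes carry, were at -0.43 (SE 0.18) and -0.60 (SE 0.26). The summed thymocyte markers were lower in all 3 deficient libraries, as given above, and their part in the receptor values was not tested.

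The NF-kB route, which acts downstream of Tnfrsf11a, Cd40 and Ltbr in mTECs, was also read. Of 17 tested genes 0 were called, 7 had log2 fold changes above 0 and 10 below, and the median was -0.10. Cd40, a receptor for T-cell help, had control values of 151, 139 and 137 FPKM and deficient values of 193, 192 and 189 FPKM, without overlap (log2 fold change 0.43, SE 0.12, limma adjusted p = 0.190). Under quantile normalization the value of Cd40 was 0.20. The inhibitor gene Nfkbia averaged 1545 ± 175 and 2054 ± 184 FPKM (log2 fold change 0.41, and 0.01 under quantile normalization). The negative regulator gene Tnfaip3 was at -0.39 (SE 0.15) and the subunit gene Rel at -0.63 (SE 0.25). The platelet chemokine genes Pf4 and Ppbp, which the symbol rule leaves out, were at 0.20 (SE 0.36) and -0.63 (SE 0.19, limma adjusted p = 0.201).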

How the data were processed

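The authors deposited 1 table of FPKM values per library for sorted mTECs (3 control, 3 Jmjd3-deficient). The submitters' processing notes name Bowtie2 2.2.5, Cufflinks and mm10. Per the labels' protocols, the cDNA went through a whole-transcriptome amplification made for single cells, which can favour some transcripts over others. The annotation, strandedness and handling of reads that fit several places are not given in the sources used here.

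Rows of a symbol were summed after 44 rows of 25 date-like symbols were left out. The 15720 genes whose mean reached 0.5 FPKM were tested on log2(FPKM + 1), which understates changes of low genes, with limma 3.58.1 in R 4.3.3 (lmFit, eBayes with trend, 2-sided, Benjamini-Hochberg over all genes). The method was tested on simulated data. Nothing in the labels states that the libraries are separate mice beyond their numbers, so p-values measure the spread between these samples. The members, role lists and tests were chosen with earlier results of these data known. Values in every library were given for the 10 ligands of smallest p, the 10 of highest mean and preset thymic, interferon-inducible and barrier ligands, and the 4 genes of smallest p in each pathway list were named. Older receptor and macrophage symbols (5) were matched through RefSeq synonyms. Promoters are from RefSeq (GRCm38.p6) and coordinates of genes from GENCODE M21. The alternatives were leaving out libraries, quantile normalization, median centring, filters at 5 FPKM or none, and a pseudocount of 0.1.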

Additional observations from a re-analysis of the deposited data

How the results depend on the processing

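The number of ligands called was 0 in each of the 12 alternatives, with 4 to 10 at an unadjusted p under 0.05 and a smallest adjusted p (limma) of 0.0528 to 0.293. The tested ligands were 24 with the filter at 5 FPKM, 32 without Con_261, Con_264 or cKO_262, and 33 otherwise. The share of all genes at that unadjusted p was not computed for the alternatives, so these counts have no background beside them. The ligand median ranged from -0.02 without cKO_265 to 0.20 under median centring. Of all genes, 2 to 23 were called with 1 library left out (2 without Con_253, Con_261 or Con_264, 23 without cKO_262, 19 without cKO_265), against 12 with all 6. In the quantile-normalized data the direction turned for Cxcl10 (-0.21) and for Ccl21b,Gm13304 (0.081), and median centring gave 0.041 for the latter. With 1 library left out, the log2 fold change ranged from -0.046 to 0.47 for Ccl22, from -0.11 to 0.58 for Ccl1, from -0.32 to 0.49 for Ccl2, from -0.092 to 0.37 for Cxcl9 and from -0.23 to 0.15 for Ccl21b,Gm13304. With Con_253 and cKO_265 both left out, Ccl2 was at -0.42 and Ccl21b,Gm13304 at 0.23. Fitting rows singly, an alternative chosen after seeing the data, gave 0.30 for row 2 of Cxcl12 and 0.082 for row 1 of Ccl20. The cause was not tested. No paired analysis was possible because the groups share no replicate numbers. Depth is unknown, so counting error cannot be given for low ligands.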
